A study of Mus musculus with 20 samples.

Results

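Distal intronic peaks are the listed regions of open chromatin that lay inside a protein-coding gene but away from any promoter. A peak was taken as distal intronic when more than 1000 bp separated it from every annotated transcription start site (TSS) and its centre base lay in the body of a protein-coding gene and in no exon of any gene. Of 102373 listed peaks, 32800 met this rule, which is 32.0% of the list (95% Wilson interval 31.8 to 32.3) and 42.8% of its 76716 distal peaks. The rest of the list held 25657 promoter-proximal peaks, 34491 intergenic distal peaks, 5396 distal peaks centred in exons and 4029 in introns of non-coding genes only.

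The peaks came from ATAC-seq, which marks open DNA by transposase insertion, in ZHBTc4, a line of mouse embryonic stem (ES) cells. In these cells the endogenous Pou5f1 gene, which encodes OCT4, is under a Tet-Off promoter and doxycycline (dox) shuts it down. All cells also carried YPet-MD, a fluorescent marker of the time since mitosis. With it they carried either SNAP-MD-OCT4, in which a degron strongly lowers OCT4 at mitosis, or SNAP-MD*-OCT4, in which the degron is mutated. Cells were grown in serum with LIF and the inhibitors known as 2i. Both OCT4 constructs were driven by the PGK promoter, to express tagged OCT4 at lower than wild-type levels. Both constructs were brought in by lentivirus, and transduced cells were sorted for similar levels, so each line is a transduced pool. The series has 20 libraries in 10 groups of 2, namely both constructs after 40 h of dox at 1 ug/ml, sorted into the phases EG1 (early in G1), LG1 (later in G1), S and SG2 (from late S to G2), and both constructs unsorted without dox. The list merges the peaks of the 16 dox-treated libraries and gives each region by chromosome, start and end. With no value per library, MD-OCT4 could not be compared with MD*-OCT4, no phase could be compared with another, sequencing depth is unknown, and no replicate error exists for any peak. Intervals below therefore cover counting error over peaks or bases treated as independent, which neighbouring peaks are not.

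Introns carry many enhancers, DNA segments that bind transcription factors and act on promoters at a distance, on the host gene or on a neighbour. In ES cells, enhancers are known to be bound by OCT4 and SOX2, often together on a composite motif, and by KLF factors and ESRRB. CTCF, which halts cohesin and so helps to fold chromosomes into loops, binds open sites of another kind. The sequences that follow are in GRCm38, 5′ to 3′ on the plus strand, with the motif match in capitals.

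The first set shows the 3 distal intronic peaks of at most 300 bp with a match to the OCT4::SOX2 motif at no more than 1 mismatch. They are whole peaks, at chr12:99399538-99399724 in Foxn3, chr2:104636731-104636946 in Cstf3 and chr10:45121690-45121953 in Prep. Foxn3 is a forkhead transcription factor, Cstf3 a subunit of the cleavage factor that forms mRNA 3′ ends and Prep a prolyl endopeptidase. The match in Foxn3 lay on the minus strand and those in Cstf3 and Prep on the plus strand.
Foxn3 intron, OCT4::SOX2 match: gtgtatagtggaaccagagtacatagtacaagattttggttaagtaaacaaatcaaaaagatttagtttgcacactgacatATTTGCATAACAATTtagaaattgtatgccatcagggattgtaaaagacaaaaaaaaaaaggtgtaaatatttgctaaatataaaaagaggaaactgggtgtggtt
Cstf3 intron, OCT4::SOX2 match: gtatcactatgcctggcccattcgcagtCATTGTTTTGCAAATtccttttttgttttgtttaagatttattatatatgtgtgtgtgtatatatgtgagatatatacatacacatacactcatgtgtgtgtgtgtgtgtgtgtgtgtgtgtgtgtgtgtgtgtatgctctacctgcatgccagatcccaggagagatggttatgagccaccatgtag
Prep intron, OCT4::SOX2 match: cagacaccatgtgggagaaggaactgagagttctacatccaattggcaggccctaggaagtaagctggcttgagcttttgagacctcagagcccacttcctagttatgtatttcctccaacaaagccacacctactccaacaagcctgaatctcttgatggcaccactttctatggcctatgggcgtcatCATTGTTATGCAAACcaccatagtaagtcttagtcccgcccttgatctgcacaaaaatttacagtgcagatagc

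The second set shows the 3 narrowest distal intronic peaks with a CTCF match free of mismatches, since CTCF gave the strongest motif signal of those searched. They are at chr17:34411262-34411400 in BC051142, chr11:73049499-73049640 in Ncbp3, which encodes a cap-binding protein, and chr5:27680639-27680780 in Dpp6, which encodes a potassium channel subunit. The match in Dpp6 is on the plus strand and the others on the minus strand.
BC051142 intron, CTCF match: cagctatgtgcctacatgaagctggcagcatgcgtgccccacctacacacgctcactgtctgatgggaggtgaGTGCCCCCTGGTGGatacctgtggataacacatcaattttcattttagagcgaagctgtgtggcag
Ncbp3 intron, CTCF match: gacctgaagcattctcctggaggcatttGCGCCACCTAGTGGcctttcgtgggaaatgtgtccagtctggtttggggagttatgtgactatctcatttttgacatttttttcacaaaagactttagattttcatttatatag
Dpp6 intron, CTCF match: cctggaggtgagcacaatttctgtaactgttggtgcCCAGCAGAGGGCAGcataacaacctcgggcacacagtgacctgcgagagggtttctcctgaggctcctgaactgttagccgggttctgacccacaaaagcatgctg

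The third set shows stretches of 101 bases around ESRRB matches in introns of pluripotency genes, which were added after the values were seen because no such peak was at most 300 bp wide. Prdm14, a repressor of differentiation, held one at chr1:13115327-13115427 in a peak of 627 bp. Esrrb, itself the gene of the factor, held a pair, at chr12:86386037-86386137 and chr12:86502013-86502113, in peaks of 538 and 798 bp. The first of the Esrrb matches lay on the minus strand and the others on the plus strand.
Prdm14 intron, ESRRB match: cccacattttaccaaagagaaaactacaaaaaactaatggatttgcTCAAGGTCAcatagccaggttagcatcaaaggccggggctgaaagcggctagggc
Esrrb intron, ESRRB match: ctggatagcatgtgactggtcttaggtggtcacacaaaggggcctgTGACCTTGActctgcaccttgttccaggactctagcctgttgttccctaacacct
Esrrb intron, ESRRB match: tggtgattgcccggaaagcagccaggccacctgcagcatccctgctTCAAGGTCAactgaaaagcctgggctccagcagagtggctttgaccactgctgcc

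Most of the distal intronic peaks had a single host gene and lay wholly in intron. The centre was in 1 protein-coding gene for 31979 peaks (97.5%) and in 2 or more for 821 (2.50%), and 30178 (92.0%) touched neither an exon nor sequence outside the gene. A non-coding gene body also covered the centre of 1058 peaks (3.23%). Within the set, 3009 peaks (9.17%) lay at most 2000 bp from a TSS, 15418 (47.0%) over 10 kb and 664 (2.02%) over 100 kb from any. The centre was within 500 bp of an exon in 5459 peaks (16.6%) and over 20 kb from one in 2523 (7.69%). At the edge of the rule, 327 peaks lay within 100 bp beyond the limit of 1000 bp, with a median width of 308 bp and a median GC content of 50.0%. Just outside it, 382 intron-centred peaks lay within 100 bp short of it, with medians of 319.5 bp and 50.9%.

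The label was checked against a second annotation, since a start site absent from the first would hide a promoter in this set. RefSeq promoters covered 20 of the 21 chromosomes of the list, and 383 of the 31597 distal intronic peaks there lay at most 1000 bp from a RefSeq start (1.21%, 1.10 to 1.34). CpG islands, runs of sequence rich in CG dinucleotides that mark many promoters, were rare in the set. Taken as a width of at least 200 bp, a GC content of at least 50% and a ratio of observed to chance CG of at least 0.6, island-like sequence was found in 382 distal intronic peaks (1.16%, 1.05 to 1.29). It was found in 770 intergenic distal peaks (2.23%), a difference of −1.07 percentage points (−1.26 to −0.87), and in 45.9% of promoter-proximal peaks. Of 373 island-like peaks that could be compared, 15 lay near a RefSeq start (4.02%) against 1.18% of the other distal intronic peaks, a difference of 2.84 points (1.27 to 5.35).

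Distal intronic peaks were narrow. Their median width was 338 bp (335 to 341), with quartiles of 212 and 539 bp and a range of 135 to 10842 bp. Intergenic distal peaks had a median of 367 bp (363 to 371) and promoter-proximal peaks one of 815 bp (807 to 824). The difference of −29 bp between distal intronic and intergenic peaks exceeded the counting error, and of 20 chromosomes (the autosomes and X) the intronic median was wider on 1, chromosome 14. GC content was nearly alike, at 48.6% (48.5 to 48.7) in introns and 48.2% (48.1 to 48.3) between genes, and the intronic median was higher on 12 of 20 chromosomes. Both classes exceeded the sequence they lie in, which had a GC content of 42.2% in introns and 40.6% between genes.

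**Figure D1:**
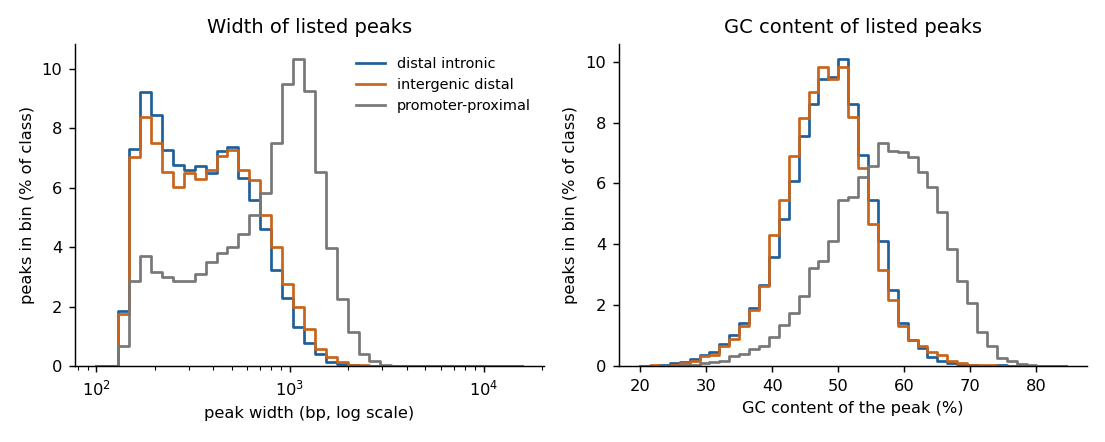
Width (left, log scale, in bp) and GC content (right, in %) of the listed peaks as the percent of each class per bin, for distal intronic, intergenic distal and promoter-proximal peaks. The distal intronic and intergenic curves nearly coincide, with medians of 338 and 367 bp, while promoter-proximal peaks are wider (815 bp) and richer in GC (57.4%).

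Bases soft-masked as repeats in the genome sequence made up 19.1% of distal intronic peaks and 25.3% of intergenic distal peaks. The difference of intronic minus intergenic ran from −9.46 to −3.80 points over the 20 chromosomes, so the intronic share was lower on each. Repeats also made up less of the underlying sequence in introns, 29.5% against 43.4%. Only 1110 distal intronic peaks (3.38%) were at least 80% repeat.

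The 5 widest distal intronic peaks were many times the median width. Mid1, an X-linked ubiquitin ligase gene, held the widest, of 10842 bp at chrX:169989487-170000328. Tmem267 held one of 6773 bp with 71.1% repeat bases, and Gm47283, on the Y chromosome, one of 4947 bp with 58.7%. Mcee, which encodes methylmalonyl-CoA epimerase, held the remaining pair, of 4275 and 4098 bp, which lie next to each other on chromosome 7. The peak in Mid1 was 50.2% repeat.

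Distal peaks were denser in introns than between genes. Eligible intron, meaning bases in protein-coding gene bodies, outside all exons and over 1000 bp from any TSS, came to 868.1 Mb and held 37.8 peaks per Mb. Eligible intergenic sequence came to 1388 Mb and held 24.8 peaks per Mb, a ratio of 1.52 (1.498 to 1.54). The ratio was above 1 on 20 of 20 chromosomes and ran from 1.14 on chromosome 13 to 1.71. With repeat bases and repeat centres left out it was 1.31 (1.29 to 1.33). Intronic density on the autosomes ran from 31.8 per Mb on chromosome 14 to 50.1 on chromosome 11, with a median of 39.7. The X chromosome held 9.18 per Mb in introns and 6.34 between genes, below each autosome in both. The Y chromosome held 7 distal intronic peaks.

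Density pooled over all host genes rose and then fell with distance from the 5′ end. Over peaks with a single host gene it was 32.1 per Mb (30.6 to 33.8) in the first 5 kb, 58.1 (56.2 to 60.2) at 5 to 10 kb, 57.0 at 10 to 20 kb, 49.7 at 20 to 50 kb, 41.0 at 50 to 100 kb and 22.7 (22.2 to 23.2) beyond 100 kb. The first 5 kb thus exceeded the stretch beyond 100 kb by a ratio of 1.41 (1.34 to 1.49), and by 1.25 (1.09 to 1.43) within genes of at least 100 kb. Longer genes were sparser in each of the 5 bins they share with shorter ones, although under 5 kb the intervals overlapped, at 28.5 (24.9 to 32.5) and 32.8 (31.1 to 34.6) per Mb. Genes of at least 100 kb held 28.9 peaks per Mb and shorter genes 54.6, a ratio of 0.53 (0.52 to 0.54), which was 0.71 (0.69 to 0.73) within bins of distance.

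In genes with a promoter peak, density fell from the 5′ end and then rose at 5 kb. A promoter peak is a listed peak at most 1000 bp from one of the gene's own start sites. In steps of 1 kb, these genes held 44.3 peaks per Mb at 1 to 2 kb, 36.8 at 2 to 3 kb, 29.0 at 3 to 4 kb and 30.4 at 4 to 5 kb, then 54.9 at 5 to 6 kb and 67.7 at 6 to 7 kb. Counting each peak whose centre alone was eligible, the step at 1 to 2 kb held 67.5 per Mb, since the rule drops peaks that reach to within 1000 bp of a TSS. Genes without a promoter peak held 24.4, 28.5, 26.6 and 22.7 per Mb in the steps from 3 to 7 kb. In wider bins these genes showed no rise, with 24.6 per Mb under 5 kb, 24.4 at 5 to 10 kb and 12.5 beyond 100 kb. The ratio of the first 5 kb to the stretch beyond 100 kb was 1.97 (1.68 to 2.31) in them. It was 1.47 (1.38 to 1.56) in genes with a promoter peak. From 2 to 5 kb to 5 to 10 kb the density changed by a ratio of 2.07 (1.92 to 2.23) with a promoter peak and 0.91 (0.76 to 1.09) without one. These steps were examined after the data were seen.

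The size of the step at 5 kb varied with the width of the neighbouring peak, and the step was not particular to promoters. Counted from centre to centre around 9010 peaks that lie over a TSS and are wider than 1000 bp, 328 distal intronic peaks had the nearest of them 3 to 5 kb away and 1063 had it 5 to 7 kb away, a ratio of 3.24 (2.86 to 3.68). Around 7433 such peaks of 300 to 1000 bp the ratio was 1.46 (1.31 to 1.62), and around 892 of at most 300 bp it was 1.07 (0.80 to 1.43). Around distal peaks wider than 1000 bp it was 2.31 (1.92 to 2.80), and around distal peaks of at most 300 bp 1.03 (0.97 to 1.09). MACS, the program behind the list, by default compares a candidate with the reads in windows of up to 10 kb around it, which reach 5 kb to either side, and the settings given for the study name no other window. The part of that window in the step was not tested. The comparison of the first 5 kb with later distances rests on these densities.

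**Figure D2:**
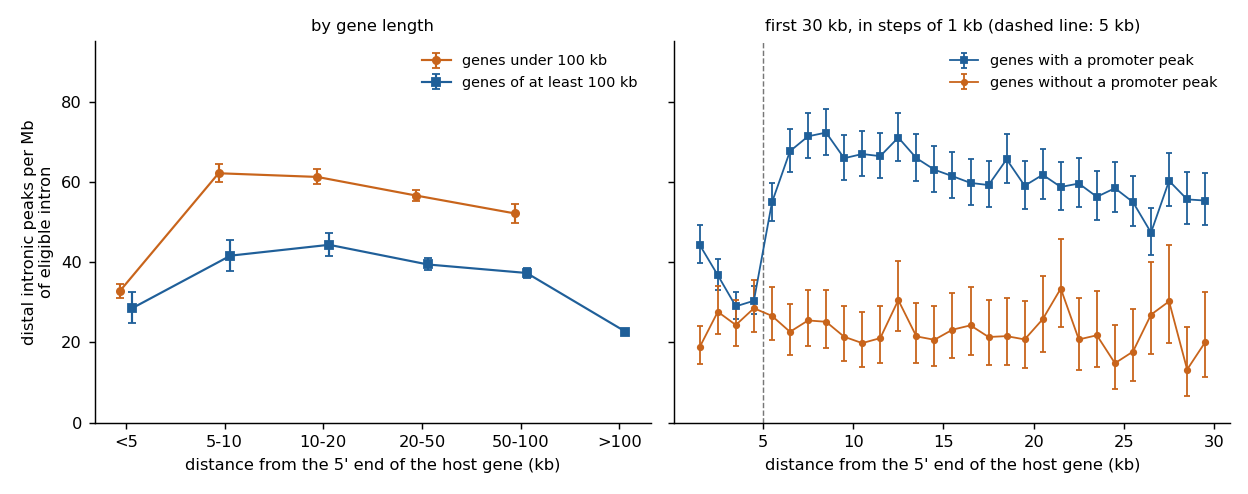
Distal intronic peaks per Mb of eligible intron against distance from the 5′ end of the host gene in kb, with 95% Poisson intervals, by gene length in 6 bins (left) and by presence of a promoter peak in steps of 1 kb (right). Genes with a promoter peak step from 30.4 to 54.9 per Mb at 5 kb, where genes without one hold 28.5 and 26.6 per Mb on either side.

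First introns, which often hold regulatory elements, were compared with later introns of the longest coding transcript of each gene. First introns held 8195 distal intronic peaks, or 42.5 per Mb, and later introns 21468, or 36.5 per Mb, a ratio of 1.17 (1.14 to 1.20). Within bins of distance from the 5′ end the pooled ratio was 0.98 (0.96 to 1.01), but the bins differed in direction. It was 1.10 (0.98 to 1.24) under 5 kb, 1.02 (0.95 to 1.09) at 5 to 10 kb, 1.06 (1.001 to 1.13) at 10 to 20 kb and 1.01 (0.96 to 1.07) at 20 to 50 kb. Farther out first introns were sparser, with ratios of 0.84 (0.79 to 0.90) at 50 to 100 kb and 0.89 (0.83 to 0.96) beyond 100 kb. Over 5000 bp from every TSS and without bins the ratio was 1.28 (1.24 to 1.32). The remaining 2316 peaks with a single host lay outside that transcript.

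Genes with a promoter peak carried more distal intronic peaks. Their introns held 40.1 per Mb against 19.2 in genes without one, a ratio of 2.09 (1.99 to 2.19), and of 2.34 (2.24 to 2.46) within bins of distance. Read the other way, 89.1% of the 9115 host genes had a promoter peak, against 60.5% of the 10137 genes with eligible intron and no distal intronic peak. Within bins of eligible intron length the difference was 23.9 percentage points (21.9 to 25.8), and it was above 0 in each of the 6 bins, from 18.7 points at 5 to 10 kb to 29.9 at 20 to 50 kb. In all, 995 host genes (10.9%) had no promoter peak. Nanog, the homeodomain factor of naive pluripotency, was among them. A pair of distal intronic peaks lay in it, 1402 and 4070 bp from the nearest TSS, and no listed peak lay within 1000 bp of its own annotated starts.

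The distal intronic peaks fell in 9115 of 21938 protein-coding genes (41.5%, 40.9 to 42.2), or 47.3% of those with any eligible intron. The median host gene held 2 of them, 3371 genes held 1 and 717 held 10 or more. Over the 4093 genes with at least 50 kb of eligible intron the median was 3.06 per 100 kb, and 546 of them held none. The longest of those were Nell1, Fstl5, Sorcs3, Enox1 and Dach2, with 524.1 to 874.8 kb of eligible intron each, and each of the 5 had a promoter peak. These 5 were named after their values were seen.

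The genes with the most distal intronic peaks were long gene models, some of them spanning other genes. Gm20388 held 296, and its annotated body spans 71 other protein-coding genes, which share 161 of those peaks. Fgfr2, a receptor for fibroblast growth factors, held 99, of which 61 also lay in one of the 29 genes inside its annotated span. Gm37240 held 58, with 16 shared. The 57 peaks of Gse1, which lies inside the span of Gm20388, were all shared, and its density was 17.3 per 100 kb against 8.24 over Gm20388. Gpc5, a glypican gene, held 49 narrow peaks with a median of 214 bp, and Slc39a11, a zinc transporter gene, 47. Etl4 held 46, the receptor phosphatase gene Ptprg 43, and the cytoskeletal linker gene Dst and the junction scaffold gene Magi1 41 each.

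Density picked out other genes than number. Among genes with at least 50 kb of eligible intron, Ccdc85c held 28.2 peaks per 100 kb (19 peaks), Dtwd2 28.1 (15 peaks) and Slc2a3, the glucose transporter GLUT3, 24.1 (14 peaks). Ahdc1, Wapl, whose product releases cohesin from chromosomes, Fnbp1, Rell1, Gramd4, Ptk7 and Rai14 followed with 20.8 to 21.9 per 100 kb. The 95th percentile over these genes was 13.5 per 100 kb, so each of the 10 was above it, and each had a promoter peak.

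**Figure D3:**
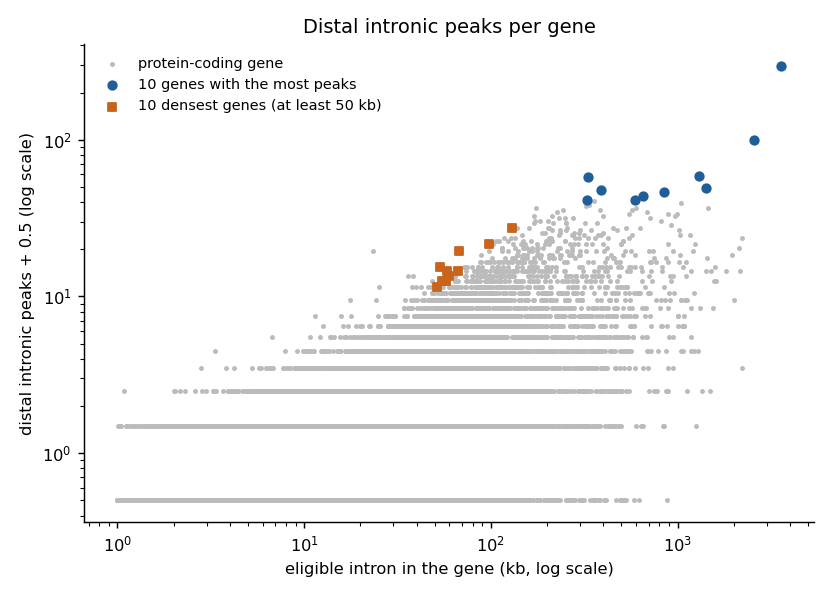
Distal intronic peaks per gene plus 0.5 against eligible intron in kb, both on log scales, each point a protein-coding gene with at least 1 kb of eligible intron. The 10 genes with the most peaks (blue) include Gm20388 at 296, and the 10 densest genes (orange) hold 11 to 27 peaks in 51.6 to 129.5 kb.

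Genes of the pluripotency network held more peaks per 100 kb as a group than the pooled value of 3.79 over all genes with eligible intron. Long genes weigh heavily in that value, and genes under 100 kb held 54.6 peaks per Mb, or 61.7 per Mb where they had a promoter peak. This and the following lists are descriptions without a test, chosen with earlier results of these data known. Of 22 pluripotency factors, 20 had eligible intron and 14 held 54 distal intronic peaks, or 12.1 per 100 kb pooled and a median of 9.64 per gene. The list counts the gene Tcf3 on chromosome 10 (2 peaks), which is not Tcf7l1, a gene of the Wnt list. The median over all genes was 0, since 47.3% held any. Esrrb, an orphan nuclear receptor of naive pluripotency, held 22 peaks (14.8 per 100 kb), Nr5a2, another nuclear receptor, 11, Tfcp2l1, a factor downstream of LIF, 6, and Prdm14 3. Nanog held 2 peaks in 4.22 kb of eligible intron. Pou5f1 and Sox2 had no eligible intron at all, and Klf2, Klf4, Dppa3, Tfap2c, Zscan10 and Zfx held none.

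Signalling pathways of ES cells varied. In the Wnt pathway, 12 of 16 genes with eligible intron held 113 peaks, or 11.0 per 100 kb. Tcf7l1, the repressive TCF of ES cells, held 27 (19.5 per 100 kb), Lef1 16, the co-receptor gene Lrp5 15, Tcf7l2 16 and Gsk3b, a kinase that marks β-catenin for decay, 16. In the LIF and STAT3 pathway 6 of 11 genes held 22 peaks (5.85 per 100 kb), of which 13 were in the receptor gene Lifr (14.5 per 100 kb), 3 in Jak1, 2 in Jak2 and 1 in Stat3. In the FGF and ERK pathway 14 of 20 genes held 167 peaks. The pooled density was 5.06 per 100 kb, with Fgfr2 supplying 99 of the peaks and 2561 of 3301 kb, and it was 9.19 without that gene. Of those 99 peaks, 61 also lay in other genes inside the annotated span of Fgfr2. The median gene held 9.95 per 100 kb, with 13 in the inhibitor Spred2, 9 in Etv5 and 8 in the adaptor Frs2. In the Nodal and BMP pathway 11 of 19 genes held 46 peaks (4.97 per 100 kb), led by the receptor gene Acvr1 with 13, the SMAD repressor Ski with 7, and Bmpr1a and Smad3 with 6 each.

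Chromatin regulators held about 8 peaks per 100 kb pooled. In the BAF remodelling complex 12 of 19 genes held 79 peaks (8.31 per 100 kb), of which Arid1b held 38, Arid2 8 and the ATPase gene Smarca4 7. Without Arid1b, its longest gene, the BAF list held 6.66 per 100 kb. Among polycomb and DNA methylation genes 21 of 26 held 79 (8.25 per 100 kb), led by Kdm2b with 10 and Cbx7, Jarid2 and Tet2 with 8 each. Without Jarid2, its longest gene, that list held 9.07 per 100 kb. The maintenance methyltransferase Dnmt1 held 6 peaks at 15.4 per 100 kb, and the de novo enzyme Dnmt3a 4 at 5.42. Of 17 lineage regulators with eligible intron 10 held 22 peaks (9.16 per 100 kb), of which 10 were in Tead4, a trophoblast factor, and 1 to 2 in the others.

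The list of long neuronal genes had the lowest pooled density of the 11. Long genes were sparser in general, with 28.9 peaks per Mb in genes of at least 100 kb and 54.6 in shorter ones. No list was matched for gene length. All 20 long neuronal adhesion and synapse genes held distal intronic peaks, but over 28309 kb of eligible intron, which gives 0.90 per 100 kb. Among them Ptprd held 23, Cntnap2 20 and Kcnip4 18, and Pcdh15 held 2 in 1498 kb. Of 20 muscle contraction genes 14 held 74 peaks (1.98 per 100 kb pooled, median 1.93 per gene). Ryr2, the cardiac calcium channel, held 21 and Ryr1, that of skeletal muscle, 13 at 14.5 per 100 kb, while dystrophin (Dmd) held 3 in 2209 kb. Without Dmd the muscle list held 71 peaks at 4.64 per 100 kb, above the value over all genes. Promoter peaks were listed for 11 of these 20 muscle genes, for 19 of the 20 neuronal genes and for 20 of the 22 pluripotency factors, beside 74.0% of all genes with eligible intron. The last list, of genes measured by RT-qPCR, was put together by the study itself and is not independent of its results. It had 26 genes, of which 20 held 117 peaks (6.80 per 100 kb), with 33 in Smyd3 and 8 in Jam2.

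Motif content set distal intronic peaks apart from the intron around them. The central 200 bp of each peak was searched on both strands for 12 motifs and compared with 51987 windows of 200 bp in eligible intron, centred 2000 bp to either side and free of listed peaks. At least 1 of the 12 motifs was present in 44.5% of peaks and 22.6% of flanks. Differences are in percentage points with 95% Newcombe intervals, and the test across the 12 motifs used intervals at 99.6%. A match describes letters in the reference and does not show that a factor is bound.

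CTCF gave by far the strongest signal. A match with at most 1 mismatch was present in 3077 distal intronic peaks (9.38%, 9.07 to 9.70) and in 240 flanks (0.46%), which is a ratio of 20.3 and a difference of 8.92 points (8.60 to 9.24). Matches of the kind printed above were densest near the middle of the peak. There were 0.54 matches per kb within 50 bp of the centre and 0.036 per kb over 1000 bp from it. Peaks with a CTCF match were wider, with a median of 422 bp (412 to 433) against 328 bp (324 to 332) without. Greater width was not particular to CTCF. Medians with and without a match were 378 and 336 bp for SOX and 367 and 334 bp for KLF, with intervals apart. For ESRRB they were 332 and 338 bp, with intervals that overlapped.

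Motifs of the pluripotency network were also more frequent than in flanks. KLF (CCACNCCC) was present in 12.7% of peaks and 5.87% of flanks, a difference of 6.87 points (6.46 to 7.29) that was 4.76 within bins of GC content. ESRRB (TCAAGGTCA) was present in 1.74% and 0.55%, a difference of 1.20 points (1.05 to 1.36). The Esrrb matches printed above are among those counted, while that in Prdm14 lies outside the central 200 bp of its peak. SOX (CCNTTGTT) was present in 4.83% and 2.72%, a difference of 2.12 points (1.85 to 2.39), STAT (TTCCNGGAA) in 0.90% and 0.49%, and TCF/LEF (ATCAAAGG) in 1.33% and 0.97%. These differences passed the test across 12 motifs. ESRRB, SOX, KLF and STAT were each more frequent than in flanks on 20 of 20 chromosomes, and TCF/LEF on 17. As a control, the same letters were searched reversed but not complemented. The control also passed the test for KLF, by 1.63 points (1.32 to 1.95), for SOX, by 0.69 (0.43 to 0.94), and for STAT, by 0.14 (0.049 to 0.237), so an excess over flanks was not limited to the motif letters for these 3. For ESRRB and TCF/LEF the control did not pass.

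The octamer was the exception before GC content was considered. Its letters, ATGCAAAT, were present in 358 peaks (1.09%) and 621 flanks (1.19%), a difference of −0.10 points (−0.25 to 0.05). Flanks are richer in A and T, with a median GC content of 45.0% against 49.0% in the peak windows, and within bins of GC content the difference was 0.22 points (0.09 to 0.36) and passed the test. Matches to the consensus letters of the composite OCT4::SOX2 motif, at no more than 2 mismatches, were rare. They were present in 47 peaks (0.14%, 0.11 to 0.19) and 34 flanks (0.065%), a difference of 0.078 points (0.034 to 0.129) that passed the test. Counting whole peaks, 80 held such a match, of which 1 had no mismatch and 11 had a single one. The exact match lay in Galnt17, a glycosyltransferase gene, and the peaks with 1 mismatch and at most 300 bp are the 3 printed first. The study searched for this motif with the program HOMER and found it enriched at bound loci that lost accessibility without OCT4. The consensus search here is a different one. Its low share is not the frequency of the motif as the study scored it.

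Motifs of other factor families were more frequent than in flanks as well. AP-2 (GCCNNNGGC) was present in 8.77% of peaks and 3.52% of flanks, TEAD (ACATTCCA) in 1.79% and 0.75%, AP-1 (TGANTCA) in 7.62% and 5.76%, and the E-box CACGTG in 3.78% and 2.72%. Each difference passed the test, also within bins of GC content. The reversed letters of AP-2 passed too, at 0.80% of peaks and 0.21% of flanks, a ratio of 3.81 against 2.49 for AP-2 itself. Those of TEAD, AP-1, the E-box and CTCF did not pass. Reversal turns each GC in the letters into CG and each CG into GC, as in AP-2 and the E-box. The frequency of CG was not matched between peaks and flanks. For such motifs the control therefore cannot separate the motif letters from CG.

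**Figure D4:**
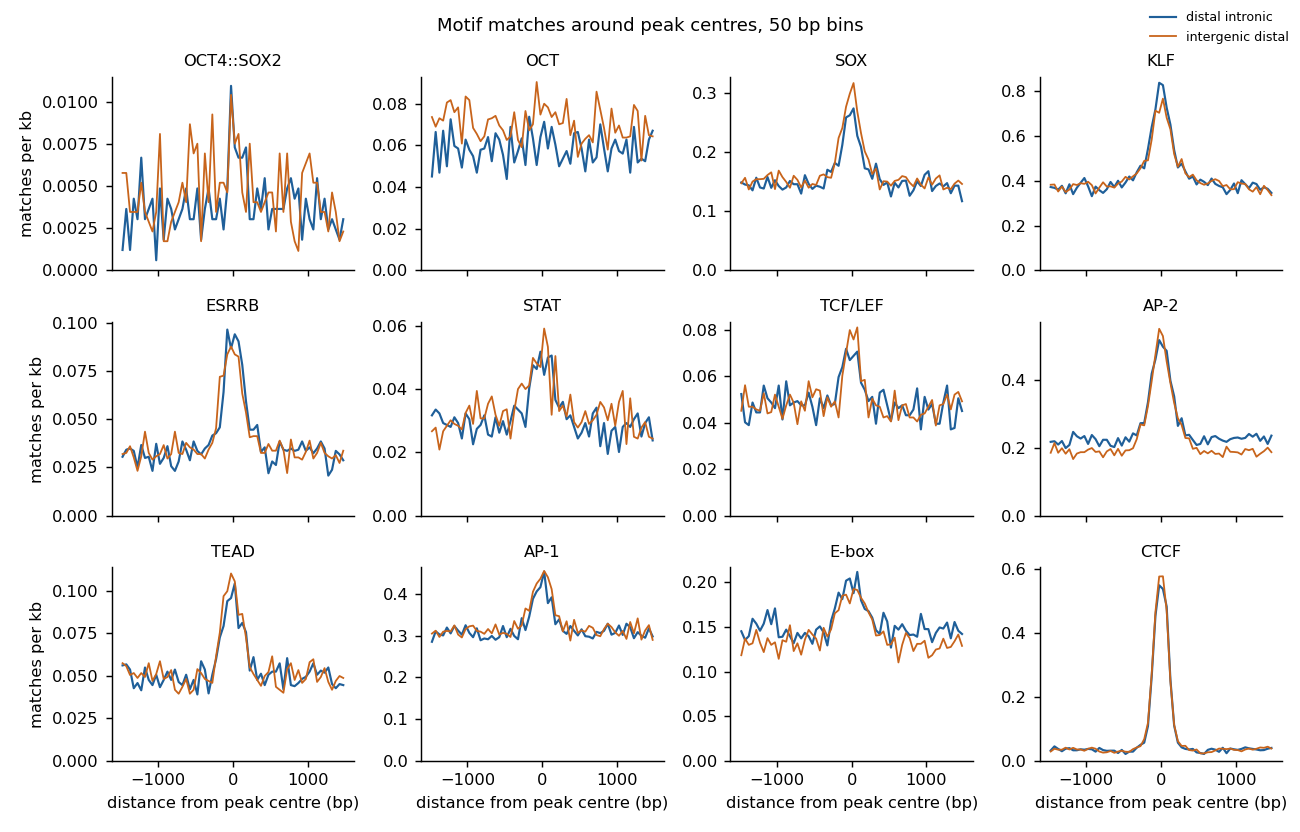
Motif matches per kb in bins of 50 bp against distance from the peak centre in bp, for distal intronic (blue) and intergenic distal peaks (orange), one panel for each of the 12 motifs with its own vertical scale from 0. CTCF rises from 0.036 to 0.54 matches per kb at the centre of distal intronic peaks, while the octamer is nearly flat.

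Against intergenic distal peaks the motif content differed little. KLF was more frequent in distal intronic peaks, by 1.12 points (0.63 to 1.62), while SOX was less frequent, by −0.60 points (−0.94 to −0.27), and so was the octamer, by −0.40 points (−0.57 to −0.23). These 3 passed the test across 12 motifs and kept their direction within bins of GC content. For the other 9 motifs the interval of the difference included 0, from −0.74 to 0.14 points for CTCF and from −0.03 to 0.36 for ESRRB.

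**Figure D5:**
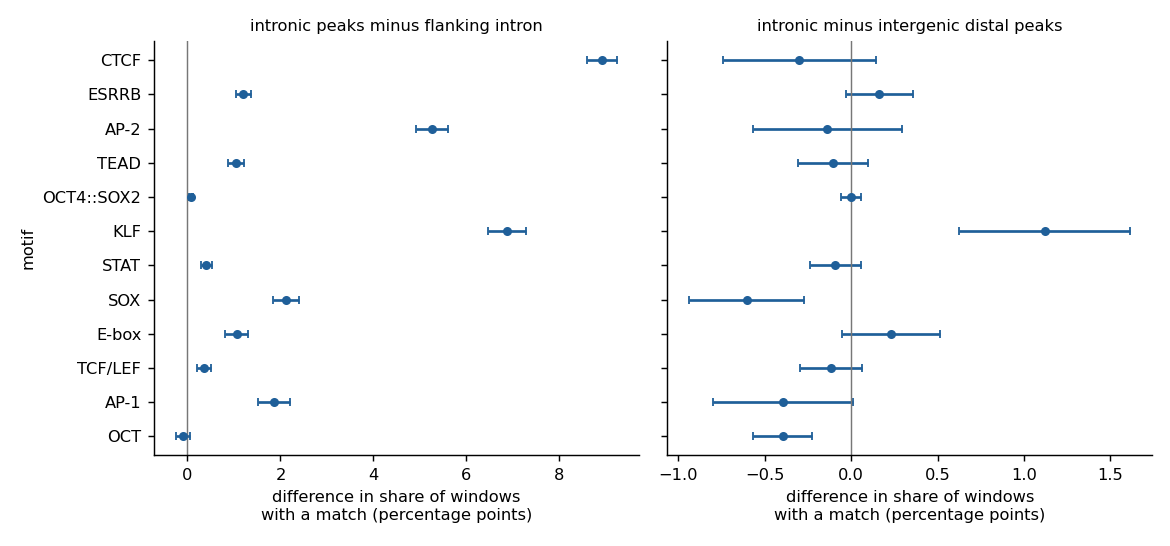
Difference in the share of 200 bp windows with a match, in percentage points with 95% Newcombe intervals, for distal intronic peaks minus flanking intron (left) and minus intergenic distal peaks (right), motifs ordered by their ratio to flanks. CTCF is highest against flanks at 8.92 points, and against intergenic peaks the differences run from −0.60 for SOX to 1.12 for KLF, on a narrower axis.

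Within the set, CTCF matches depended on where in the gene the peak lay. They were present in 6.02% of peaks in first introns and 10.7% of those in later introns, a difference of −4.67 points (−5.32 to −4.00). Within bins of distance from the 5′ end the difference was −5.14 points (−5.92 to −4.36). KLF, ESRRB and TEAD went the other way, with 14.5% against 12.1%, 2.18% against 1.58% and 2.20% against 1.64%. Within the same bins these 3 differed by 1.60, 0.67 and 0.67 points and passed the test across 12 motifs. AP-2 was present in 9.57% against 8.44%, but within those bins its difference of 0.92 points (0.093 to 1.75) did not pass. In hosts without a promoter peak CTCF was present in 12.0% of peaks, against 9.19% in hosts with one, a difference of 2.86 points (1.45 to 4.42), and no other motif differed past the test. Peaks over 50 kb from a TSS had CTCF less often than those within 5 kb, 8.44% against 10.8%, and KLF too, 11.4% against 13.8%. They had SOX more often, 5.85% against 4.45%, and the octamer too, 1.65% against 0.94%. These 4 passed the test, but within bins of GC content the KLF difference of −0.94 points had an interval (−2.34 to 0.46) that included 0. These divisions of the set were chosen after the data were seen.

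Repeats held another mix. Of the 6307 distal intronic peaks with a repeat base at their centre, ESRRB was present in 2.58% and KLF in 14.2%, against 1.54% and 12.4% of the others. AP-2 was present in 5.77% against 9.49%, and CTCF in 7.96% against 9.72%. These 4 differences passed the test and kept their sign within bins of GC content.

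The strand of a motif relative to its host gene was read from windows with a single match. SOX lay on the strand of the gene in 61.4% of 1512 peaks (exact binomial interval 58.9 to 63.9), while the octamer did so in 38.7% of 333 (33.5 to 44.2), ESRRB in 40.1% of 544 (35.9 to 44.3) and TEAD in 44.3% of 567. Flanking intron had the same lean, at 60.7% for SOX, 42.4% for the octamer, 41.2% for ESRRB and 44.4% for TEAD. The difference between peaks and flanks was 0.70 points (−2.86 to 4.28) for SOX and −3.67 (−10.1 to 2.94) for the octamer. For none of the 8 motifs that are not palindromes did peaks differ from flanks past the test over those 8. The comparison with flanks was added after the data were seen.

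Gaps between neighbours were similar in length to those of intergenic peaks, although density was 37.8 per Mb in introns and 24.8 between genes. Gaps were not scaled by density, so they do not compare clustering. The median gap from one to the next nearest was 5660 bp in introns and 5241 bp between genes, and 18.6% and 20.6% had a neighbour of their own class within 1000 bp.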

How the data were processed

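ATAC-seq was measured in 20 libraries of ZHBTc4 cells. The authors aligned reads to mm10 (GRCm38) with STAR 2.6.1c, removed duplicates with Picard, found peaks with MACS2 2.1.1.20160309 in paired-end mode and used BEDTools to merge those of the dox-treated libraries. The deposited list used here gives coordinates only, with no unit of signal. Values per library were not used here. The study describes removing peaks over 5 kb, although some remain in this list, and peaks in input or blacklisted regions, which was not tested here. Merging counts a region found in 1 library and in 16 alike.

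Here, TSS, exons and gene bodies came from GENCODE M21 and sequence and repeat masking from RefSeq GRCm38.p6, whose chromosomes match the build of the list. The members and lists were chosen with earlier results of these data known. Densities are peaks per Mb of eligible sequence. Since a whole peak had to be over 1000 bp from a TSS and an eligible base only itself, densities within 2 kb of a TSS are low. Motifs were searched as consensus letters, both strands, with 0 mismatches, up to 1 for CTCF (14 letters) and up to 2 for OCT4::SOX2 (15 letters). OCT letters can lie inside OCT4::SOX2 matches. Over all 102373 peaks, the central 200 bp held KLF in 12.4%, AP-2 in 11.4%, CTCF in 8.09%, AP-1 in 6.69%, SOX in 4.41%, E-box in 4.06%, TEAD in 1.58%, ESRRB in 1.37%, TCF/LEF in 1.17%, OCT in 1.16%, STAT in 0.88% and OCT4::SOX2 in 0.12%. Shares have Wilson or exact binomial intervals, differences of shares Newcombe intervals (normal within bins), ratios of densities exact Poisson or Mantel-Haenszel intervals, and medians order-statistic intervals, all at 95%. Genes named are the 10 with the most peaks, the 10 densest with at least 50 kb of eligible intron, genes of the 11 lists, the hosts of the 5 widest peaks and of the printed sequences, and any said in the text to be chosen afterwards. The functions were tested on simulated data, where 100% of 200 planted matches per motif were found. Those matches were built from the same consensus letters with at most 1 changed base. Their recovery checks the code and does not show how many real sites the letters find. The fit of MD-OCT4 against MD*-OCT4 in each phase, set down for the case of values per library, was not run. Python 3.11.15 and numpy 2.4.6 were used.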

Additional observations from a re-analysis of the deposited data

How the results depend on the processing

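Of 158 alternative values, 132 planned and 26 added after seeing the data, 135 kept their direction and their side of the threshold. The set shrank to 18393 peaks when only those of at least 300 bp were kept. The first intron ratio turned to 0.982 within bins of distance. Against flanking intron, differences in points, the octamer turned to 0.0215 in 100 bp windows and to 0.224 within bins of GC content. TCF/LEF in 100 bp windows no longer passed (0.139), nor did OCT4::SOX2 at no more than 1 mismatch (0.0194). At no more than 3 mismatches OCT4::SOX2 still passed, with a larger difference of 0.26. Consensus letters read backwards, which serve as a control, gave -0.00704 for OCT4::SOX2, -0.0143 for ESRRB, -0.0176 for TEAD and -0.285 for AP-1, all reversed, and 0.0591 for TCF/LEF, 0.103 for E-box and 0.0151 for CTCF, none past the test, but passed for KLF (1.63), SOX (0.686), AP-2 (0.589) and STAT (0.14). Letters that hold GC or CG, as those of AP-2, the octamer and the E-box do, change their CG when reversed, which was not matched. Against intergenic peaks, OCT4::SOX2 turned to 0.0027 within bins of GC content and 0.0205 over 5000 bp from every TSS, where SOX no longer passed (-0.48). Over whole peaks, KLF no longer passed (0.479), ESRRB turned to -0.0789 and E-box to -0.485, and AP-1 (-1.31) and CTCF (-0.924) now passed. The intronic and intergenic peaks differ in width, and its part in the whole-peak values was not tested. For strand, in points from 50%, KLF over 5000 bp no longer passed (-1.89) and TCF/LEF without repeat centres now did (-5.59). For the other changes named here the cause was not tested.

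No paired analysis was possible because coordinates alone carry no value for any library. For the same reason the fit of MD-OCT4 against MD*-OCT4 and its alternatives, including leaving out each replicate, were not run. Depth is unknown, so a region missing from the list is not shown to be closed.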
